A study of Mus musculus with 3 samples.

Results

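Retained-intron transcripts are transcript models that keep sequence which the protein-coding mRNAs of the same gene splice out. The set described here holds the transcripts annotated as retained_intron in GENCODE that reached at least 1 TPM, a level normalised for transcript length and library size, in all 3 libraries of 1 macrophage sample group. It counts 609 transcripts of 529 genes, out of 21848 retained_intron transcripts of 9421 genes and 141767 mouse transcripts in all. The members were chosen by their measured TPM, so their levels are a description and carry no test. Removal of introns by the spliceosome normally precedes export, and an mRNA that keeps an intron is commonly held in the nucleus or, once translated, degraded by nonsense-mediated decay when the intron brings an early stop codon. Some immune genes, Irf7 among them, are known for intron retention that varies with stimulation of macrophages. Annotated retained_intron models are often built from partial cDNAs, so a model can stop or begin within an intron without holding all of it.

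The libraries were made from RNA depleted of ribosomal RNA, taken from the cytosolic fraction of bone-marrow-derived macrophages of C57BL/6J mice (primary cells grown from bone marrow, sex and age not collected). All cells had 100 ng/ml Lipid A for 12 hours, then 12 hours after wash-out, then 100 ng/ml Lipid A again for 120 minutes. Lipid A, the lipid part of bacterial endotoxin, is a ligand of Toll-like receptor 4. Each library was made with 1 µg of RNA. The 3 libraries form 1 group with no untreated or once-treated controls, so nothing here measures an effect of Lipid A. They are labelled as biological replicates, share 1 donor entry and are not said to come from separate animals or cultures, so the spread between them may be technical. Expected counts summed to 29271172, 64707728 and 37598580 in replicates 1, 2 and 3.

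All 16 macrophage markers were at 1 TPM or more, while 0 of 8 T and NK cell, 0 of 5 B cell, 0 of 4 dendritic cell, 0 of 5 stromal and 0 of 4 erythroid markers were, with 2 of 8 neutrophil and 2 of 4 endothelial markers above it. Transcripts of type misc_RNA held 63.0%, 67.5% and 64.7% of all TPM, and protein_coding transcripts 30.2%, 24.4% and 24.9%, so the 1 TPM threshold was applied on a scale set largely by misc_RNA. Replicate 3 stood apart in nuclear noncoding RNA, as given with the library differences.

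The label was first set against the annotation. Only 121 of the 609 members, or 19.9%, held a complete intron, meaning an intron of one of the gene's protein_coding transcripts with no base that is exonic in another transcript type of the gene. Of the others, 177 (29.1%) ended inside an intron, whether or not they also began inside one, 290 (47.6%) only began inside one and 21 did neither. Over all classes 353 members (58.0%) began and 189 (31.0%) ended inside an intron. The term retained-intron transcript is therefore used for the annotation type, not for a measured intron. Models that only began inside an intron did so a median of 74.5 bases before the next exon (quartiles 27 and 135, 284 of them measurable), and those that ended inside one ran a median of 195 bases past the last exon (quartiles 89 and 409, 167 measurable).

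The parts that separate members from the spliced mRNAs were short. The median member was 799 bases long, with 112 bases, or 14.3%, in no exon of any other transcript type of its gene. For 280 members these distinct bases numbered 100 or fewer, and for 14 there were none. The 6 sequences that follow show the forms among the most abundant or highest-share members, read from the GENCODE M21 transcripts (mm10), 5′ to 3′, with intron bases in capitals and 12 bases of the adjoining coding exon in lower case.

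H2-K1-215, chr17:33996643-33996674, minus strand: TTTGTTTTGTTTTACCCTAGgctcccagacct

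Vim-203, chr2:13579369-13579432, plus strand: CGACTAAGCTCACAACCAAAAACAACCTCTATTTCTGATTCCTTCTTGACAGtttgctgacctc

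Rgs1-203, chr1:144247795-144247917, minus strand: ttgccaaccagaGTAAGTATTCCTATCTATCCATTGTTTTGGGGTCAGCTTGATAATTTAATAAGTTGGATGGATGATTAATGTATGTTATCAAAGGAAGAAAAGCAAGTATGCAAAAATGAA

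Irf7-210, chr7:141264644-141264736, minus strand: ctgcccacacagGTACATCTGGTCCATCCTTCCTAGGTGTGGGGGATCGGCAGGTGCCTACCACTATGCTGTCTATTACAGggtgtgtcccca

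Cd83-202, chr13:43785239-43785357, plus strand: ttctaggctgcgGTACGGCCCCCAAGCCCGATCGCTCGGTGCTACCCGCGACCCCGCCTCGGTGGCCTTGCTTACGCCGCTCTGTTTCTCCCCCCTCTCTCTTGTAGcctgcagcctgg

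Tap2-202, chr17:34212056-34212241, plus strand: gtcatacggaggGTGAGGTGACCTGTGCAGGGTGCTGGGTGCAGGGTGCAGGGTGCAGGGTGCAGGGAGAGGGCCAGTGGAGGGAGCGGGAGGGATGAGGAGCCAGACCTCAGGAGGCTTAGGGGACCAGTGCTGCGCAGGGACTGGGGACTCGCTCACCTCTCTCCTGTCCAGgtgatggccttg

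H2-K1-215 and Vim-203 start 20 and 52 bases before an exon and so carry only the end of an intron, including its closing AG. Rgs1-203 ends 111 bases into one and carries only its start, GTAAGT. In Irf7-210, Cd83-202 and Tap2-202 a complete coding intron of 69, 95 or 162 bases lies between the flanking exons: intron 5 of 9 of Irf7-201, intron 1 of 4 of Cd83-201 and intron 6 of 11 of Tap2-201. Read in frame from the upstream exon, each of these 3 introns brings a stop codon, which begins at intron base 22 in Irf7, 93 in Cd83 and 7 in Tap2.

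The 121 members with complete introns held 159 of them, 99 members with 1 and 22 with more, up to 7. These introns had a median length of 172 bases (quartiles 89 and 311.5, range 66 to 4560) and a median GC content of 53.5%. All but 2 ran from GT to AG, the exceptions from GC to AG. Of the 159, 149 lay in coding sequence, 5 in the 5′ UTR and 3 in the 3′ UTR. Among 146 with a reading frame, 123 (84.2%) brought an in-frame stop, at a median of base 30 of the intron. Only 8 of the 23 without a stop had a length that is a multiple of 3.

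Members differed in form from the 5402 retained_intron transcripts outside the rule in genes of at least 10 TPM in every library. Among those, 28.9% held a complete intron, against 19.9% of members. Over all classes 57.6% of them ended inside an intron, against 31.0% of members, and 49.5% began inside one, against 58.0%. By class, 46.7% ended inside one and 22.4% only began inside one, and the median distinct sequence was 336 bases or 43.9% of the transcript. Their 2128 complete introns had a median length of 221 bases, with 60.2% under 300 bases against 74.2% in members. An in-frame stop was brought by 88.5% of them against 84.2% in members. GTAAGT opened 11.9% of them, against 14.5% in members, and GTGAGT 16.0%, against 13.8%. The member values are over all 609, whatever the level of the gene. Of the 457 members in genes of at least 10 TPM, 19.9% held a complete intron, 33.7% ended inside one and 58.4% began inside one. Of their complete introns 77.0% were under 300 bases, 17.5% opened with GTAAGT and 13.5% with GTGAGT. Where a reading frame was known, 83.3% brought an in-frame stop. These are descriptions of annotation classes, chosen after the values were seen, with no test.

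**Figure D1:**
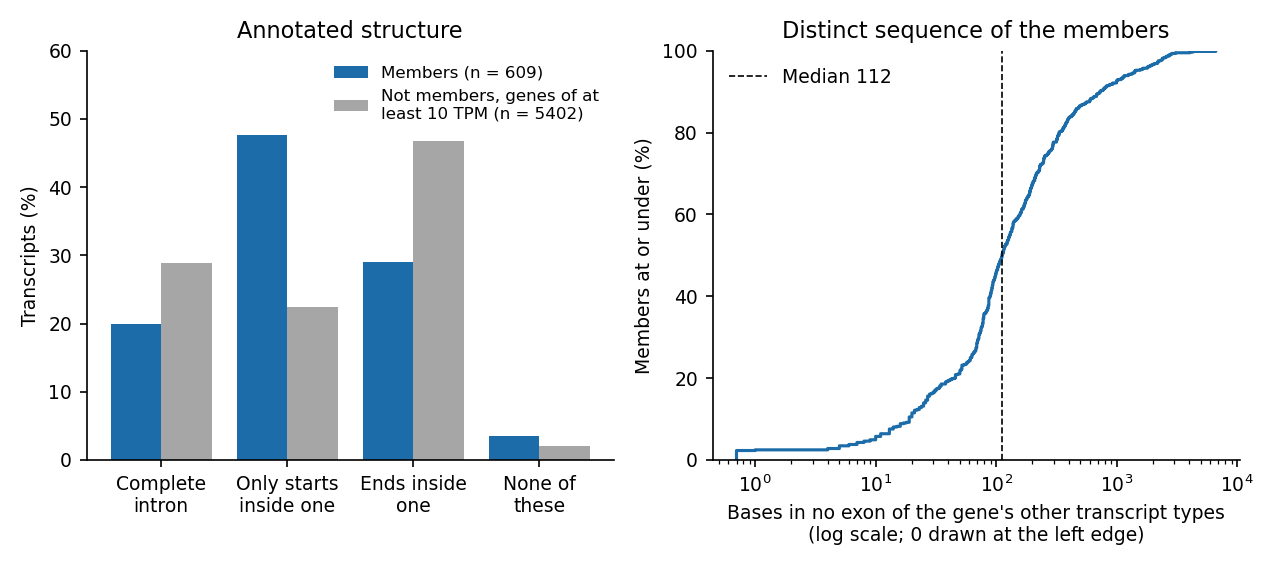
Left, percentage of transcripts in each annotated structure class for the 609 members (blue) and the 5402 retained_intron transcripts outside the rule in genes of at least 10 TPM (grey). Right, cumulative percentage of members by the number of bases in no exon of the gene's other transcript types, on a log axis, with the median of 112 dashed; each transcript is in 1 class, a complete intron before an end before a start, and 47.6% of members against 22.4% only start inside an intron, while starts in any class are 58.0% against 49.5%.

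Each member's share of its gene was its TPM over the summed TPM of all transcripts of that gene. The median share over members was 19.6%, 22.3% and 19.5% in replicates 1, 2 and 3, and the median of the mean shares was 20.3%, with a range from 0.0374% to 99.5%. In the other transcript quantification, made directly from the reads and called the second here, the medians were 15.8%, 15.7% and 14.4%. Mean shares lay under 5% for 98 members, at 5 to 20% for 203, at 20 to 50% for 242 and at 50% or more for 66, and 125 members were the leading transcript of their gene. Levels were mostly low, with 363 members under a mean of 5 TPM, 223 at 5 to 50 TPM and 23 at 50 TPM or more.

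By the same rule 11202 protein_coding, 495 nonsense_mediated_decay and 605 processed_transcript models passed. These were 19.1%, 6.89% and 3.81% of those annotated, and 2.79% of retained_intron models passed. In genes with more than 1 transcript their median shares were 60.1%, 22.1% and 23.5%, so the retained_intron median lay nearer to the latter types than to protein_coding. Of all 12414 transcripts of any type that passed in such genes, 51.8% had a mean share of at least 50%, against 10.8% of the members. That share is part of the measure that chose the members, and nothing is read from it.

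Shares of members were compared between libraries. The rule asks for 1 TPM in all 3 libraries and so leaves out transcripts that reached it in only some. The SD of the share over the 3 libraries was under 5 percentage points for 432 members and 10 or more for 33. A small share can only have a small SD on this scale, and 98 members had a mean share under 5%. Relative to the mean share, the SD was over 50% for 58 members. Across members the Spearman correlation of the shares was 0.917 between replicates 1 and 2, 0.935 between 1 and 3, and 0.931 between 2 and 3, all values from 1 annotation and 1 method. The lower bound of the interval the authors deposited for the TPM, whose level is not stated, was at least 1 TPM in all 3 libraries for 417 members and under 0.1 TPM in at least 1 library for 23. Just inside the threshold were Cpsf1-216 with 1.00, 1.74 and 1.35 TPM, Ctsa-206 with 1.30, 1.00 and 1.23 and Ddhd1-210 with 1.38, 1.00 and 5.43. Just outside were Dennd5a-203 and Pabpc1-210, each with a lowest value of 0.99 TPM.

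Transcript length bore on the size of a share. A TPM divides counts by length, so a short model with few counts can hold a large share beside a long mRNA. By expected counts in place of TPM the median share of the same members was 6.96%. For the 172 members of up to 600 bases the share by TPM was a median of 4.49 times that by counts, and for the 134 members over 2000 bases it was 1.04 times. The reads of exons that a member and the mRNA have in common are divided between them by the quantification, and the tables do not separate the reads that fell on intron bases.

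**Figure D2:**
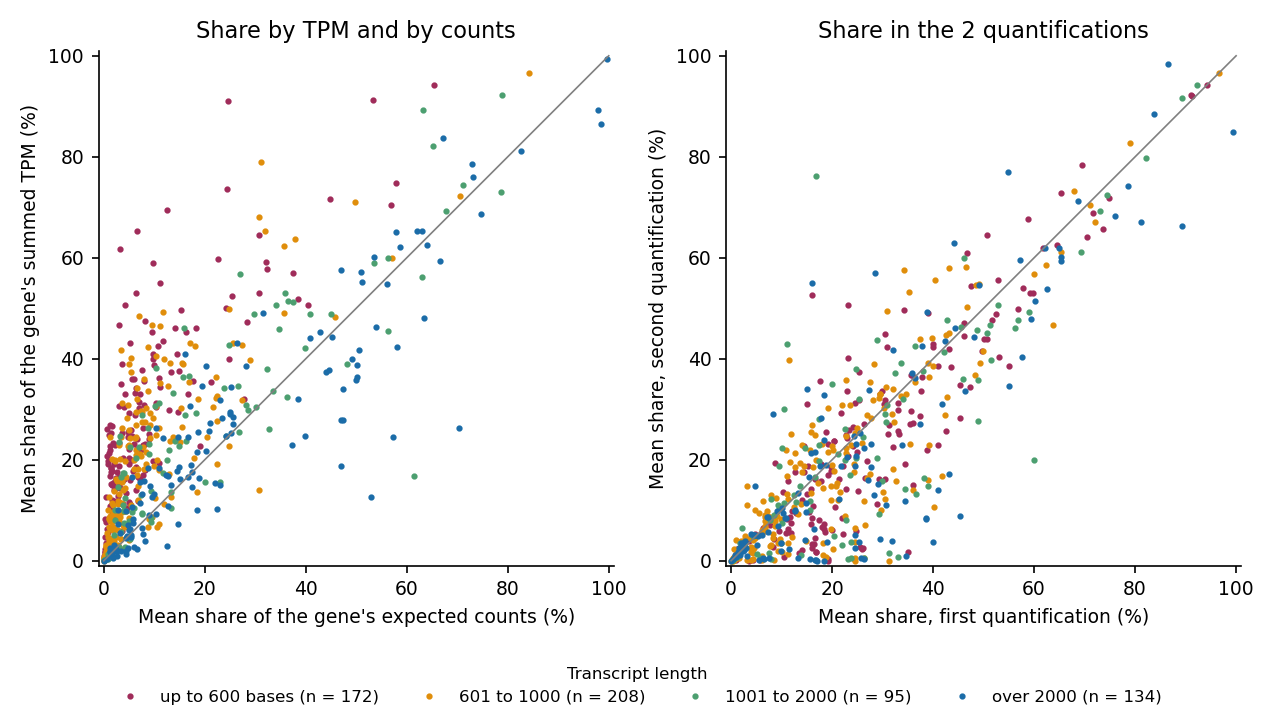
Each point is 1 of the 609 members, coloured by transcript length, with the line of equality in grey. Left, mean share of the gene by TPM against mean share by expected counts, where members of up to 600 bases lie farthest above the line. Right, mean share in the second quantification against the first, where 141 members fall under 0.5 of their first value.

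Among the most abundant members were transcripts of antigen presentation and the cytoskeleton. H2-K1-215, from the gene of a classical MHC class I heavy chain, was at 982, 1269 and 1014 TPM in replicates 1, 2 and 3 and held 46.2%, 53.9% and 48.8% of the gene (mean 49.6% ± 3.94, SD, n = 3). It is 457 bases long, its 20 intron bases are its only distinct sequence, and by counts it held 15.2%. The second quantification put it at 41.4%, 46.2% and 37.0%. The mRNA H2-K1-201 was at 837, 822 and 763 TPM. MHC class I genes are near-identical in places, so counts can be split among them and with H2-K1 they are uncertain.

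Vim-203, from the vimentin gene of the intermediate filaments, was at 308, 407 and 215 TPM and held 40.2%, 51.3% and 39.0% of the gene. By counts it held 11.7%. Its share was highest in replicate 2 in both quantifications, the second giving 38.2%, 47.1% and 29.96%. Itm2b-202, from a gene of an integral membrane protein, was at 426, 342 and 339 TPM with shares of 39.0%, 48.0% and 42.3%, which were larger in the second quantification at 54.3%, 63.5% and 56.3%.

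Aif1-205, from the gene of the macrophage protein Iba1, was at 229, 177 and 212 TPM and held 48.1%, 57.5% and 53.5% of the gene. It starts 54 bases inside an intron of one model, yet every base of it is exonic in another transcript type, so it has 0 distinct bases. Fxyd5-214 was likewise at 50.7% ± 2.09 of its gene with 7 distinct bases. Neither has more than 7 bases that set it apart from the gene's other transcript types.

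Ctsb-202, from the gene of the lysosomal protease cathepsin B, varied most among the 10 most abundant members. It was at 365, 85.8 and 144 TPM in replicates 1, 2 and 3, or 19.5%, 5.48% and 9.30% of the gene. The second quantification gave 42.3%, 37.8% and 38.9%, above every value of the first and with little spread. By counts the mean share was 1.68%. The mRNA Ctsb-201 was at 1510, 1482 and 1404 TPM, so the member varied while the mRNA stayed near its level.

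Rgs1-203, from the gene of a GTPase activator that dampens chemokine receptor signalling, was at 267, 150 and 90.3 TPM. Its level differed between libraries while its share stayed close, at 35.6%, 37.1% and 34.3%, and the second quantification gave 38.6%, 38.4% and 33.4%. Ms4a6c-202, from a gene of the membrane-spanning 4A family, held 28.9%, 32.6% and 30.6% at 110, 89.9 and 96.9 TPM.

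Members that kept a high share by every measure were fewer. Of the 66 members with a mean share of at least 50%, 48 reached it in both quantifications and 29 also by expected counts, and 13 of these 29 held a complete intron. Cd83-202, from the gene of an activation marker of antigen-presenting cells, was at 110, 107 and 66.3 TPM and held 77.5%, 75.3% and 75.4% of its gene (76.0% ± 1.26). The second quantification gave 72.5%, 65.8% and 66.5%, and counts gave 73.2%. The spliced Cd83-201 was at 31.9, 35.0 and 21.7 TPM, below the member in every library. The 2 models differ by the 95-base intron printed above and in their ends.

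Tap2-202, from the gene of a subunit of the peptide transporter that loads MHC class I, was at 27.6, 23.1 and 21.7 TPM with shares of 76.4%, 82.0% and 77.4%. The second quantification gave 73.4%, 77.5% and 71.7%, and counts gave 72.9%. Tap2-201 was at 8.53, 5.06 and 6.22 TPM, again below the member in every library. A pair of opposite-strand genes overlaps it, Gm15821 at 0.15, 0.12 and 0.45 TPM and Gm20496, listed at 0.

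Prelid1-202, from a gene of mitochondrial lipid transfer, held 80.6%, 82.9% and 83.0% at 45.5, 51.7 and 44.2 TPM, and 79.9%, 79.4% and 79.8% in the second quantification. Its 82-base intron brings no in-frame stop, and 82 is not a multiple of 3. Ncl-202, from the gene of nucleolin, a host of small nucleolar RNAs, held 83.5%, 85.0% and 82.8% at 28.3, 34.6 and 32.4 TPM and carries introns 9 and 10 of 13. Rps20-201, of a small ribosomal subunit protein, held 91.9%, 91.5% and 90.3% at 186, 115 and 109 TPM but 53.4% by counts, beside an annotated mRNA, Rps20-203, of 3706 bases against its own 582.

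The highest shares of all came with overlapping genes or short models. Olfr56-205 held 99.6%, 99.6% and 99.1% of the transcript TPM of an olfactory receptor gene at 16.3, 7.12 and 10.4 TPM. Its exons overlap those of the interferon-induced gene Ifi47 on the same strand, itself at 106, 54.2 and 60.7 TPM, and both were highest in replicate 1. Tmem132a-203 held 92.2%, 92.9% and 91.6% at 53.1, 51.9 and 40.3 TPM, and its exons overlap those of Slc15a3 on the opposite strand, at 295, 268 and 242 TPM. Neither the labels nor the files say whether counting used strand, and reads of overlapping genes cannot be told apart. Exoc3l4-211, Mrpl57-202 and Chic2-202 held 96.6% ± 0.811, 94.3% ± 1.15 and 91.0% ± 1.54, and by counts 84.1%, 65.3% and 24.7%. Over all members 91 (14.9%) overlapped an exon of an opposite-strand gene and 30 (4.93%) an exon of a same-strand gene. Of all retained_intron transcripts 10.2% and 3.50% did.

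**Figure D3:**
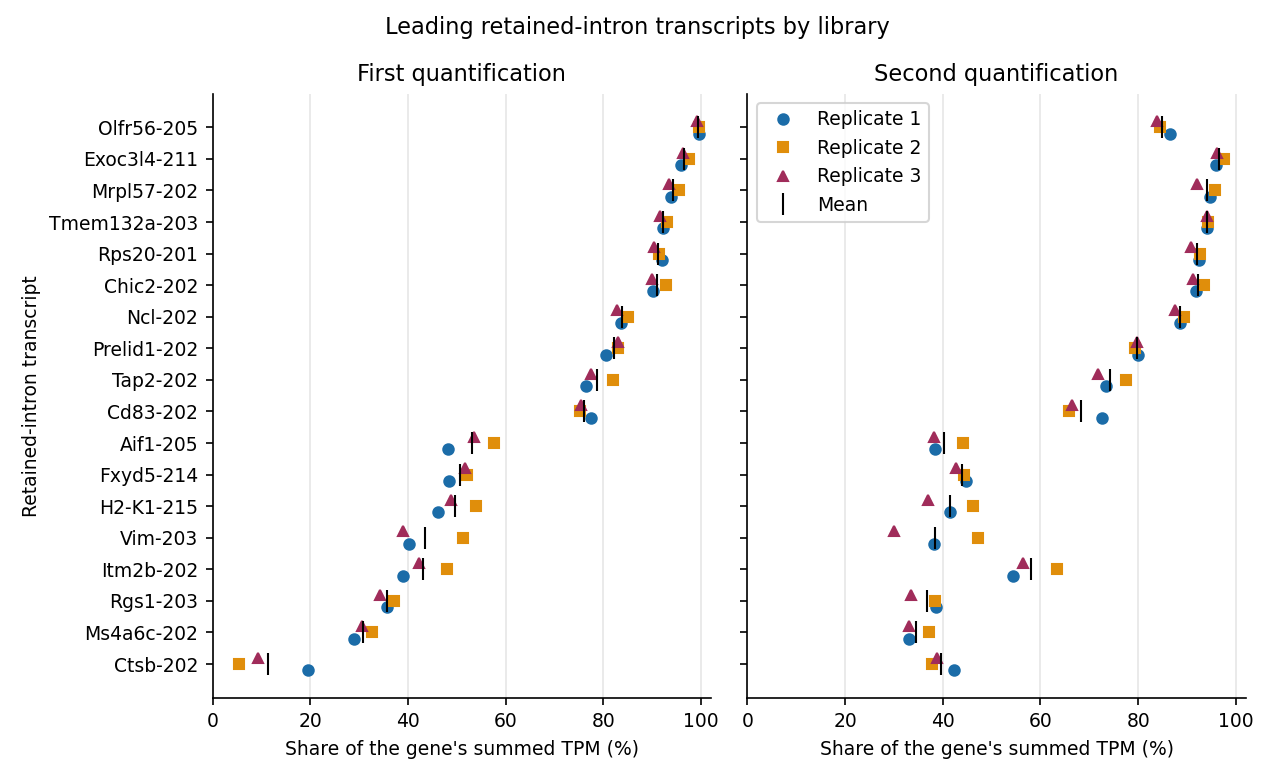
Share of the gene's summed TPM (percent) for the 10 members of highest mean TPM and the 10 of highest mean share in genes of at least 10 TPM, 18 transcripts in all as Rps20-201 and Cd83-202 are both. Points are the 3 libraries and the vertical tick their mean, in the first (left) and the second (right) quantification; the upper 10 lie above 65% in every library of both, and Ctsb-202 moves from 5.48 to 19.5% on the left to 37.8 to 42.3% on the right.

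The quantifications, which come from the same reads and are no replicate of each other, ranked members alike but not closely, with a Spearman correlation of mean shares of 0.795 across the 609. The second share was under 0.5 of the first for 141 members (23.2%), against 8.07% of the 12414 transcripts of the background, and over 2 times the first for 24 (3.94%), against 2.18%. Members and background were both chosen by TPM of the first quantification, which favours falls over rises. Of the background 10613 were protein_coding, with a median share of 60.1% beside 20.3% for members, so the percentages are not like for like. In the second quantification 4 members were listed at 0 in all 3 libraries and 35 had a mean under 0.1 TPM. The share of members under 0.5 was 29.7% where distinct bases made up less than 5% of the transcript, 28.7% at 5 to 15%, 22.4% at 15 to 30% and 10.2% at 30% or more.

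Among members of at least 5 TPM on average, the 5 largest falls in the second quantification were in models that start inside an intron. Prrc2a-204 held 33.9%, 31.2% and 28.7% in the first and was listed at 0 in all 3 libraries of the second, with 40 distinct bases. Anpep-206, from the gene of aminopeptidase N, held 18.6%, 31.3% and 23.1% against 0.116%, 0.582% and 0.117%. Tfrc-204, from the transferrin receptor gene, held 23.5%, 8.21% and 18.6% against 0.45% in replicate 3 and 0 in the others. Aplp2-207 and Rwdd1-202 completed the 5, at 0.562% and 0.411% on average in the second.

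Among members of at least 5 TPM, the 5 largest rises were in models that hold a complete intron or end inside one. Gpnmb-204 went from a mean of 0.489% to 2.42% of a gene at 1184 TPM, with 5.04% in replicate 2 alone, and Klf6-202 from 3.17% to 14.8%. H2-Q5-203, of a nonclassical MHC class I gene, was at 18.3%, 9.97% and 22.2% against 72.7%, 75.2% and 81.0%. Irf7-206 went from 1.06% to 4.05% and Acp2-202, of lysosomal acid phosphatase, from 8.34% to 29.1%. In each of Klf6-202, H2-Q5-203, Irf7-206 and Acp2-202 the lowest second share was above the highest first share.

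The libraries differed in a way that followed the sequence of the models. Members had their highest share in replicate 1 in 163 cases (26.8%), replicate 2 in 260 (42.7%) and replicate 3 in 186 (30.5%). The background over 12414 transcripts was 41.1%, 36.7% and 22.2%, and 10613 of these were protein_coding. For processed_transcript models the values were 31.3%, 41.2% and 27.5%, nearer to those of members. For nonsense_mediated_decay models they were 36.4%, 40.9% and 22.7%. A share in replicate 3 of over 1.5 times that of both other libraries was found for 52 members (8.54%), against 1.12% of the background. Members with a complete intron were highest in replicate 3 in 59 of 121 cases (48.8%), those that end inside an intron in 63 of 177 (35.6%) and those that only start inside one in 57 of 290 (19.7%). By distinct sequence the count was 26 of 128 under 5%, 37 of 188 at 5 to 15%, 49 of 156 at 15 to 30% and 74 of 137 (54.0%) at 30% or more. The median ratio of the replicate 3 share to the mean of the other libraries was 0.953, 0.937, 0.998 and 1.16 in these classes, and 0.896, 0.922, 1.01 and 1.18 in the second quantification.

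Among members of at least 5 TPM, the 5 with the largest ratio in replicate 3 were transcripts of immune receptors, a chemokine and ferritin. Ccl5-202, from the chemokine gene Ccl5, was at 12.2, 8.68 and 41.8 TPM in replicates 1, 2 and 3, or 0.175%, 0.147% and 0.671% of its gene. Clec4e-206, from the gene of the receptor Mincle, was at 4.97, 2.17 and 11.4 TPM, and Fth1-208, of the ferritin heavy chain, at 5.75, 3.05 and 14.2 TPM. Lilrb4a-207 and Lilr4b-207, of leukocyte receptors encoded by near-identical neighbours whose counts are uncertain, were at 6.19, 1.76 and 18.8 TPM and at 3.24, 1.45 and 11.3 TPM. All 5 were highest in replicate 3, which the choice by that ratio favours, and lowest in replicate 2. Of their bases 44.3% to 64.1% were distinct.

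Of the 5 members of at least 5 TPM with the smallest ratio, 4 start inside an intron with 5 to 21 distinct bases, and Tpt1-208 ends inside one. Hsp90aa1-204, with 13 distinct bases, was at 17.1, 29.4 and 5.08 TPM, or 25.6%, 29.5% and 8.93% of its gene. Pf4-202, of platelet factor 4, held 14.3%, 29.1% and 7.32%, and Riok3-208 held 23.2%, 9.53% and 5.13%. Abi1-214, with 5 distinct bases, held 3.50%, 20.5% and 2.03%. Mean shares in the first and second quantifications were 16.9% and 1.84% for Pf4-202 and 12.6% and 17.7% for Riok3-208. They were 21.4% and 16.2% for Hsp90aa1-204 and 8.69% and 19.5% for Abi1-214. Tpt1-208 held 0.544%, 7.37% and 1.54%, and in the second quantification 0.126%, 0.0394% and 0.286%, where replicate 2 was the lowest and not the highest.

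The retained_intron transcripts outside the rule were summed too. One that is high in replicate 3 alone falls outside by construction, so nothing is read from the comparison with members. Per 100 TPM of protein_coding transcripts, members summed to 2.72, 3.25 and 2.85 TPM in replicates 1, 2 and 3, and the others to 0.582, 0.629 and 1.64. All retained_intron transcripts together made 0.998%, 0.946% and 1.12% of library TPM, a mean of 1.02% ± 0.0888 (SD, n = 3). At least 1 TPM was reached by 876, 817 and 1349 of them, and 529 did so in replicate 3 alone, against 83 in replicate 1 alone and 71 in replicate 2 alone. The same counts over transcripts of all types are not given here. So these do not show whether the difference is particular to retained_intron transcripts. Outside the rule Syk-204 was at 2.21, 0.91 and 13.5 TPM and Ikbke-207 at 1.25, 0.83 and 9.13, from genes of kinases of receptor and interferon signalling. Nonsense_mediated_decay transcripts stayed at 1.82, 1.91 and 1.78 per 100 TPM of protein_coding.

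Levels of nuclear-retained RNAs differed between the libraries too. Malat1 was at 191, 133 and 952 TPM in replicates 1, 2 and 3, Neat1 at 14.3, 10.9 and 55.6, and Gm26917 at 112, 31.2 and 985. All were highest in replicate 3 and lowest in replicate 2. The 5 members with the largest replicate 3 ratio were chosen by that ratio, so nothing is read from their order. In plain TPM, the scale used for Malat1, members summed to 8226, 7928 and 7107 in replicates 1, 2 and 3. The other retained_intron transcripts summed to 1758, 1536 and 4088, highest in replicate 3, which the rule favours, and lowest in replicate 2. Per 100 TPM of protein_coding transcripts, members were highest in replicate 2. On that scale the others were lowest in replicate 1 and again highest in replicate 3. The part of Malat1, Neat1 and Gm26917 in the library differences was not tested. None of the 9 listed nuclear-retained long noncoding RNA genes has a retained_intron transcript annotated.

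**Figure D4:**
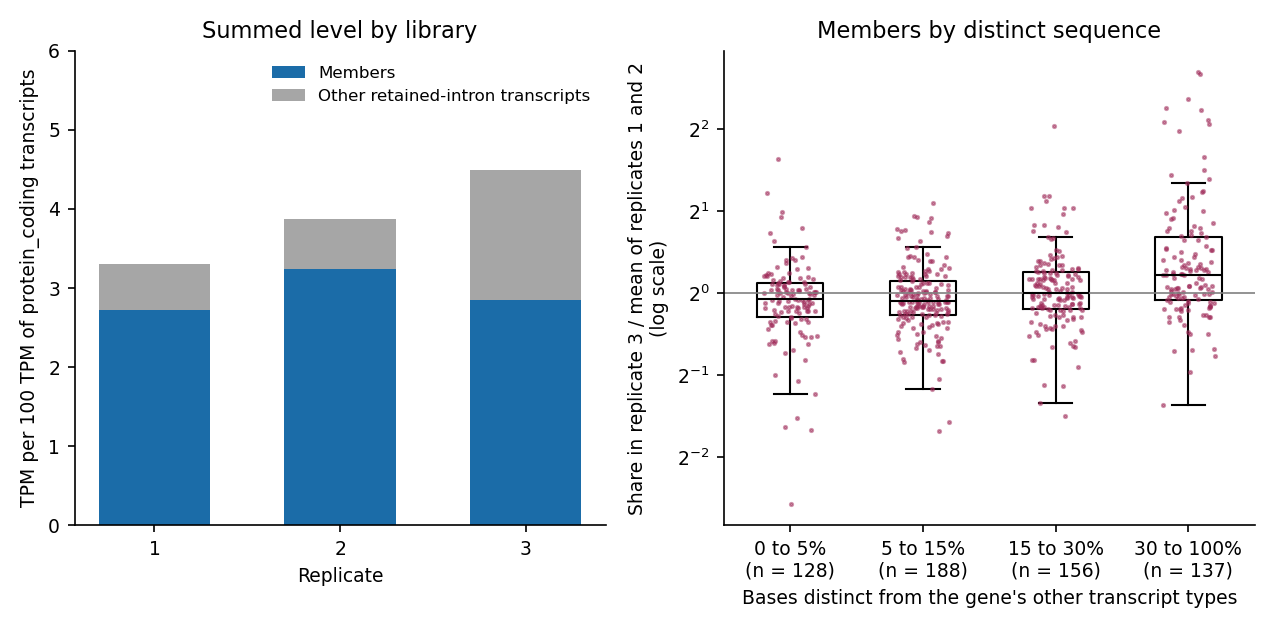
Left, summed TPM of members (blue) and of the other retained_intron transcripts (grey) per 100 TPM of protein_coding transcripts in each library. Right, share in replicate 3 over the mean share in replicates 1 and 2 (log axis) for members grouped by the percentage of distinct bases, with boxes for the quartiles, whiskers to the last point within 1.5 box lengths and 1 point per member; the medians are 0.953, 0.937, 0.998 and 1.16.

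Members were found more often in genes of higher level, where a smaller share reaches 1 TPM. Of genes with an annotated retained_intron transcript and 10 TPM or more in every library, 380 of 2199 (17.3%) held a member. By the gene's mean level these were 12.0% at 10 to 30 TPM, 19.6% at 30 to 100, 30.6% at 100 to 300 and 58.2% above 300 TPM, with median member shares of 19.9%, 15.8%, 8.30% and 1.06%. Several genes held more than 1 member: 64 had at least 2 and 13 at least 3, with 5 in Lilr4b and 4 in Pirb, both of leukocyte receptors. Members of 1 gene share reads and exons and are not independent.

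Interferon-stimulated genes held 25 members in 18 genes. Of the 39 of at least 10 TPM, 17 held one (43.6%), beside 17.3% of all genes, with a median gene level of 98.9 TPM beside 25.5 TPM. The median share of the 25 was 4.53%. Samhd1-210, from the gene of a dNTP hydrolase that restricts viruses, was at 83.2, 79.9 and 83.8 TPM and held 20.8%, 31.3% and 28.8%, with 27 distinct bases. Its mean share was 16.3% in the second quantification and 6.47% by counts. Psmb8-205, from the gene of an immunoproteasome subunit, was at 98.6, 67.2 and 73.6 TPM with a complete intron of 190 bases that has an in-frame stop. It held 46.8%, 45.4% and 44.5%, and 47.8%, 44.7% and 46.6% in the second quantification, which differ by less than the spread between libraries.

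Irf7 encodes a transcription factor of the type I interferon response. Of the 9 genes of at least 10 TPM listed for regulated intron retention, it alone held a member (11.1%), beside 17.3% of all genes. Irf7-210, with the 69-base intron printed above, was at 42.8, 22.2 and 28.2 TPM and held 4.59%, 4.24% and 5.05% of the gene, and 5.38%, 4.46% and 5.67% in the second quantification. By counts its mean share was 4.57%, close to that by TPM. Irf7-206, with intron 7 of 9, was at 8.34, 4.61 and 7.90 TPM, and Irf7-213 at 2.32, 1.26 and 2.84 TPM. The spliced Irf7-201 was at 461, 242 and 258 TPM, far above the 3 members in every library.

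Lysosomal and antigen presentation genes held 19 members in 13 of 31 genes (41.9%), beside 17.3% of all genes. Their median gene level was 179 TPM, beside 25.5 TPM for all, and the median share was 1.11%. H2-K1-215 and Ctsb-202 were the most abundant of them. H2-K1-214, with a complete intron, held only 0.675%, 1.04% and 1.08%. Small nucleolar RNA hosts held a member in 7 of 16 genes (43.8%), at a median of 135 TPM. Over all 609 members, whatever the list, 7 (1.15%) have a small RNA gene within an exon, and each of those small RNAs was listed at 0. The share was 0.911% of all retained_intron transcripts and 1.81% of those outside the rule in genes of at least 10 TPM. Only Taf1d-203 holds genes of small nucleolar RNAs, and the others hold microRNA genes.

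Genes of translation held a member in 16 of 93 (17.2%), beside 17.3% of all genes, at a median gene level of 128 TPM. Rps16-203 held 71.2%, 77.3% and 76.0% at 97.9, 84.5 and 71.5 TPM, and Rpl15-206 46.8%, 45.1% and 49.9% at 105, 72.7 and 81.1 TPM. Rpl13a-213 held 32.2%, 39.1% and 27.6%. In the second quantification the means of Rps16-203, Rpl15-206 and Rpl13a-213 were 71.9%, 34.3% and 29.8%, and by counts 57.8%, 28.4% and 16.6%. Ribosomal protein genes have many processed copies in the genome, and these counts are uncertain.

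Genes of Lipid A signalling held a member in 5 of 28 (17.9%), near the 17.3% of all genes. Their median gene level was 44.5 TPM beside 25.5 TPM for all, so nothing particular to them is read from the count. Tnip3-205, from the gene of an inhibitor of NF-kappaB signalling, was at 82.3, 89.6 and 76.9 TPM and was the leading transcript of its gene at 37.7%, 47.9% and 42.3%, with 18.02% by counts. Cd14-202, from the gene of the endotoxin co-receptor, was at 23.4, 25.9 and 20.1 TPM with shares of 12.1%, 7.70% and 13.2%. Irak2-207, from the gene of a kinase below Toll-like receptors, was at 1.51, 10.9 and 2.44 TPM, or 2.71%, 22.5% and 5.63%, and its value in replicate 2 stood apart from the other libraries. Cytokine, chemokine and receptor genes held a member in 3 of 17 (17.6%), also near the 17.3% of all genes, at a median gene level of 58.8 TPM. Among their members Csf2ra-205 held 24.8%, 23.6% and 13.6% and Cxcl16-203 2.21%, 1.72% and 2.80%.

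Many splicing regulators are known to control their own mRNA through retained introns or poison exons. Those listed held a member in 4 of 45 genes (8.89%), beside 17.3% of all genes. Their median gene level was 25.7 TPM beside 25.5 TPM for all. Hnrnpm-213 held 22.4%, 10.2% and 15.4%, Nktr-217 15.4%, 33.2% and 19.9% and Srsf1-203, which has 0 distinct bases, 17.8%, 12.7% and 16.7%. In the second quantification their means were 2.62%, 21.3% and 13.4%, and by counts 3.73%, 3.03% and 3.31%. Ddx39b-204, of an RNA helicase of splicing and export, held 11.5%, 9.79% and 19.3% with 801 distinct bases and was highest in replicate 3, as it was in the second quantification at 13.3%, 10.5% and 20.8%. Genes of glycolysis, the TCA cycle and oxidative phosphorylation held a member in 3 of 30 (10%), beside 17.3% of all genes, at a median gene level of 51.4 TPM. Cox4i1-203, of a cytochrome c oxidase subunit, held 8.64%, 13.8% and 9.02%, but 0.728% on average in the second quantification. Gapdh-213 held 0.519%, 0.705% and 0.719%, with 2067 distinct bases.

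**Figure D5:**
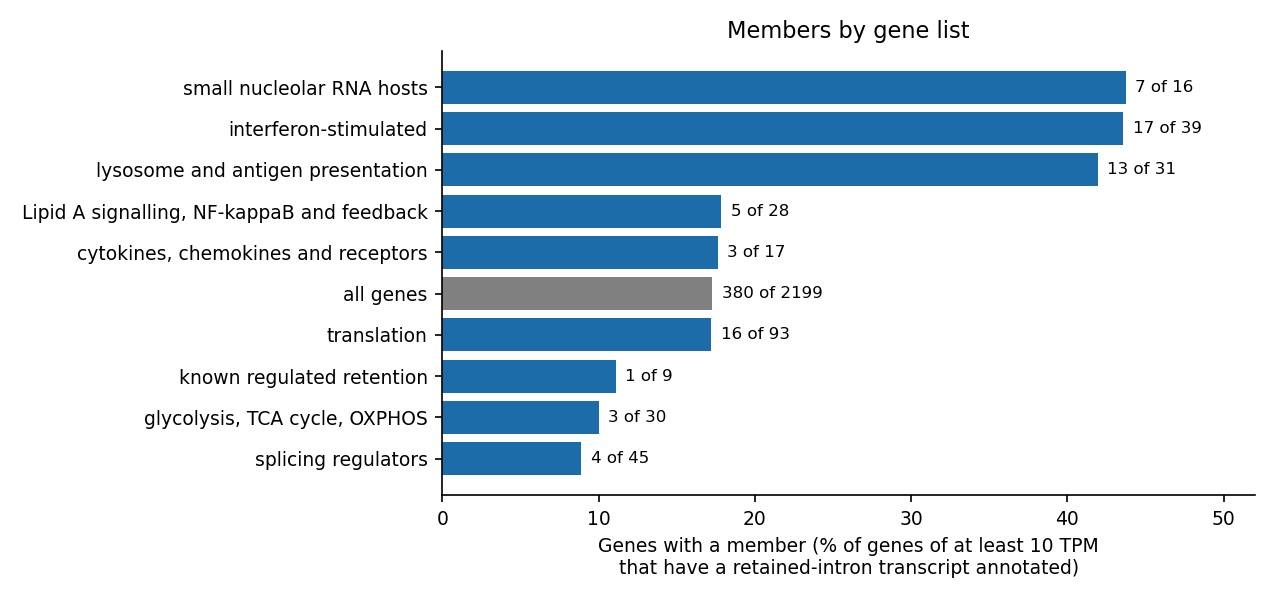
Percentage of genes that hold a member, among genes of at least 10 TPM with a retained_intron transcript annotated, for each list (blue) and for all such genes (grey), with the counts beside the bars. Small nucleolar RNA hosts, interferon-stimulated genes and lysosomal and antigen presentation genes lie at 41.9% to 43.8%, beside 17.3% for all genes, and their median gene levels are 135, 98.9 and 179 TPM beside 25.5 TPM.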

How the data were processed

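The deposited files gave 2 transcript quantifications per library on mm10 and GENCODE M21, per the labels and the library notes. The first, derived from transcriptome alignments, gives expected counts, TPM, isoform percent and TPM interval bounds per the file headers. The second, made from the reads directly, gives, per the file headers, estimated counts (est_counts) and TPM. Neither labels nor headers name an aligner, a quantifier or a version. All 141767 transcripts matched between tables and the GENCODE M21 annotation, and 97 spike-in and control rows of the second table, with the tRNA rows of the first, belong to no gene and entered no share. The latter rows, with the spike-ins, held 0.360%, 0.176% and 0.179% of expected counts. TPM were used as the authors deposited them.

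A share in percent is a transcript's TPM over the summed TPM of its gene, computed here and not taken from the deposited isoform percent. Distinct bases were counted against all other transcript types of the gene. Mean ± SD is over 3 libraries, and no test was made, as there is 1 group. The background is all transcripts of any type with at least 1 TPM in all 3 libraries, in genes with more than 1 transcript. Functions were tested on simulated data. Python 3.11.15, numpy 2.4.6, pandas 2.3.3 and matplotlib 3.10.9 were used. Members and the 10 gene lists were chosen with earlier results of these data known. Named members are the 10 of highest TPM and of highest share, the 5 at each end of the ratio between quantifications and of the replicate 3 ratio among members of at least 5 TPM on average, up to 4 per list and 3 on each side of the threshold. Syk-204, Ikbke-207 and genes named for overlap or nuclear retention were chosen after their values were seen. Some members that these rules name are not reported here.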

Additional observations from a re-analysis of the deposited data

How the results depend on the processing

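The number of members was 609, and 424 by the second quantification, 185 at 5 TPM, 974 at 0.5 TPM, 604 with at least 10 expected counts and 1336 with TPM rescaled to protein-coding plus long noncoding genes, and 664 to 738 when 1 library was left out. The median share of 20.3% became 24.0% with the rule applied to the second quantification, 30.8% at 5 TPM, 15.1% at 0.5 TPM, 11.1% with rescaled TPM, 6.96% by expected counts, 25.4% over the member plus protein_coding transcripts and 15.7% in genes of at least 10 TPM. It ranged from 16.2% to 20.5% with 1 library left out, the lowest without replicate 2. In alternatives chosen after seeing the data it was 15.7% for the same members in the second quantification and 12.1% for members with a complete intron. The 66 members at a share of 50% or more became 36 at 5 TPM, 46 by expected counts and 65 to 75 with 1 library left out. The retained_intron part of library TPM of 1.02% was 3.58% over protein-coding genes alone and 0.594% in the second quantification, and 0.972% to 1.06% with 1 library left out. Members highest in replicate 3 numbered 186, 211 in the second quantification and 52 at over 1.5 times both others. Of 64 named members, 26 kept a mean share within 1 SD in the second quantification and 38 did not. The cause of these shifts was not tested, except that higher thresholds test fewer transcripts. No paired analysis was possible because the 3 libraries form 1 group. Members rest on short distinct sequence and few counts where TPM is low.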
